A study of Mus musculus with 8 samples.

Results

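Dapl1 (death associated protein-like 1) was 1 of the 12299 genes whose islet expression could be compared between normal chow (NC) and high fat diet (HF), and it was chosen because its array signal was both bright and higher on HF. All probe sets annotated to Dapl1 and to no other gene were taken, which gave 1 probe set, 1453568_at, of the 45101 on the array. The samples were pancreatic islets of male C57BL/6J mice, a strain that carries a natural deletion in Nnt (nicotinamide nucleotide transhydrogenase), so that both diet groups carry it. Mice were weaned at 4 weeks of age onto NC with 4 kcal% fat or HF with 45 kcal% fat, and stayed on diet for 12 weeks according to the labels or 14 weeks according to the methods. Islets were freed with collagenase, purified on a Ficoll gradient and picked by hand, and each sample pooled the islets of 2 mice. There were 4 pools per diet on 1 array each, NC replicates 1, 2, 4 and 5 and HF replicates 21, 22, 23 and 24. The p-values below measure the spread between such pools, and the number of arrays limits the precision. Values are intensities on the linear scale after GCRMA, a method that removes background and makes arrays comparable.

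Dapl1 encodes a small protein related to Dap, a substrate of the mTOR kinase that holds back autophagy. Dapl1 has been described in epithelia at an early step of differentiation, in the retinal pigment epithelium, where it was tied to the pigment cell factor Mitf and to limited proliferation, and in T cells. In dormant eggs a relative of Dap sits in the exit tunnel of stored ribosomes together with Habp4, eEF2 and eIF5a. The genes of these processes were therefore followed beside Dapl1.

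The gene lies on chromosome 2 of the mouse reference (GRCm38.p6, RefSeq), on the plus strand, from base 59484653 to base 59505020, a span of 20368 bases. Its promoter sequence is shown beside that of Dap, its paralog, so that the pair can be compared in sequence as well as in signal. Each sequence covers 250 bases before the RefSeq start of the gene and 50 bases from it, on the plus strand, at chr2:59484403-59484702 for Dapl1 and chr15:31224135-31224434 for Dap. Capitals mark the motifs found.
Dapl1 promoter: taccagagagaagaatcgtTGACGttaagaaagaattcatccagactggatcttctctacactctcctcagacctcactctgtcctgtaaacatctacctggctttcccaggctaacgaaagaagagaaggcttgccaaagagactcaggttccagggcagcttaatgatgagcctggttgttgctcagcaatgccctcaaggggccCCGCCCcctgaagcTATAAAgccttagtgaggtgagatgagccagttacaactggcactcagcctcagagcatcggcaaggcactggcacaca
Dap promoter: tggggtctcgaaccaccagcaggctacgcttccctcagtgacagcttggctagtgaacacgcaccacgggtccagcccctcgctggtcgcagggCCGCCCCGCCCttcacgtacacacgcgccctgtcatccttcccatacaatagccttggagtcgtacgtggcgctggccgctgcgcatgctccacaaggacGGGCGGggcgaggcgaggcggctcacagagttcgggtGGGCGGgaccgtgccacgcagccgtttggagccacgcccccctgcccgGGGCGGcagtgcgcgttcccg
Both strands were searched for the TATA box spelled TATAAA, for the GC box spelled GGGCGG, for the CCAAT box, for the core of a cAMP response element, TGACG, for CACGTG, an E-box that Mitf and related factors can bind, and for the AP-1 site TGACTCA. Dapl1 held TATAAA at position -29 and TGACG at position -231, where 0 is the first base of the gene, and GGGCGG on the minus strand at position -43, which reads CCGCCC as printed. None of these overlapped. Dap held no TATAAA and 5 matches to GGGCGG, at positions -156, -151, -56, -19 and 29, the first 2 of which overlap. Of 32851 mouse promoters of the same length, 13.6% held the TATA box, 35.7% the GC box, 37.4% the CCAAT box, 20.8% the cAMP element core, 7.15% the E-box and 5.20% the AP-1 site. The CCAAT box, the E-box and the AP-1 site were in neither window. The Dapl1 window had 51.0% G and C, with 43.0% of promoters lower, and the Dap window 69.3%, with 89.5% lower. A match is a description of letters and not evidence of a bound factor.

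In NC islets the Dapl1 intensity was 2987 in replicate 1, 2524 in replicate 2, 3372 in replicate 4 and 3361 in replicate 5. In HF islets it was 7746 in replicate 21, 14902 in replicate 22, 12181 in replicate 23 and 8464 in replicate 24. The groups did not overlap, and the lowest HF pool lay 2.30 times above the highest NC pool. The 4 NC pools averaged 3061 ± 400.1 (SD), and the 4 HF pools averaged 10823 ± 3342. The mean log2 difference was 1.78, which is 3.44-fold. Because this contrast was used to choose the gene, the difference is given without a test. In bulk islet RNA, more cells that express a gene and more RNA per cell cannot be told apart.

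The HF pools also differed more among themselves than the NC pools did. The highest NC value was 1.34 times the lowest, while in HF that ratio was 1.92. On the log2 scale the SD was 0.20 in NC and 0.44 in HF. The NC spread exceeded that of 77.2% of all genes in NC, and the HF spread exceeded that of 96.4% of all genes in HF, where the median SD was 0.12. HF replicates 22 and 23 were high and replicates 21 and 24 low. Leaving out 1 pool at a time gave log2 differences between 1.61, without HF replicate 22, and 1.92, without HF replicate 21.

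**Figure D1:**
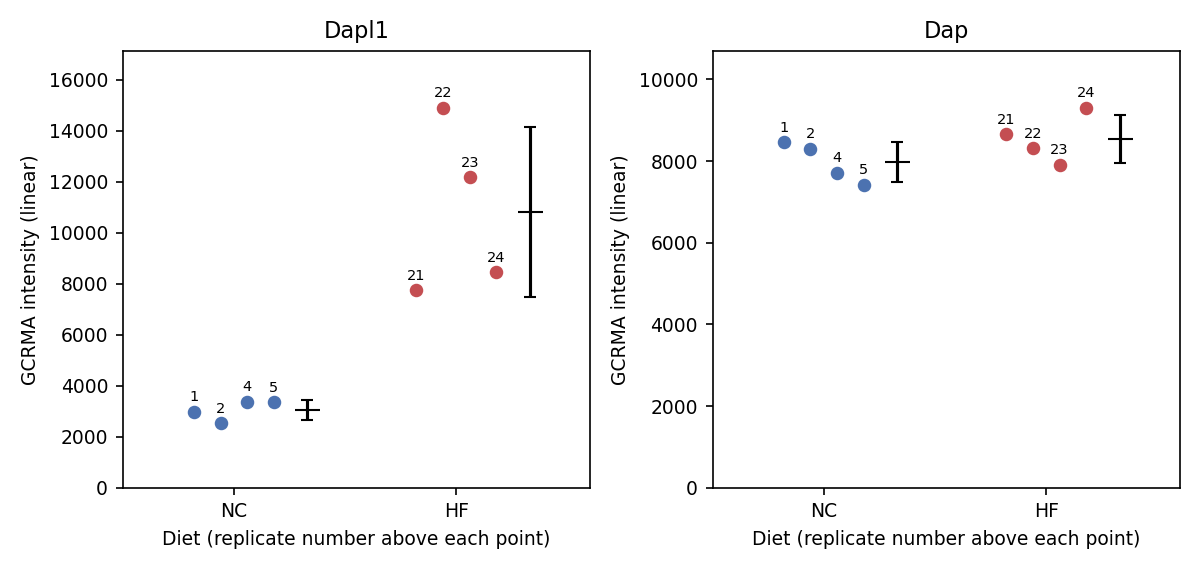
GCRMA intensity (linear axis from 0) of Dapl1 and of its paralog Dap in each pool, with the replicate number above each point and the mean ± SD (n = 4) beside each group. The 4 HF pools lie between 7746 and 14902 for Dapl1, all above the NC pools, while the 2 diets overlap for Dap.

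Dapl1 was among the brighter probe sets on either diet. Of all 45101 probe sets, 5.12%, 6.06%, 4.53% and 4.53% were brighter than Dapl1 in NC replicates 1, 2, 4 and 5. In HF replicates 21, 22, 23 and 24 the share was 1.90%, 0.865%, 1.12% and 1.73%. Its place among the 12299 genes, ordered by mean log2 intensity, moved from 1382 in NC to 326 in HF. In NC its nearest neighbours in that order included Timm23, a subunit of the mitochondrial import channel, and Txnrd1, a thioredoxin reductase, and in HF Cox5b, a subunit of cytochrome c oxidase, and Kif5b, a kinesin motor. Probe sets bind their targets with different strength, so this order is one of array signal and not of transcript amounts.

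The brightness and the difference of Dapl1 are the values it was chosen for, so its standing among other genes is a description. A gene was called when its adjusted p in limma was under 0.05 and it differed at least 1.5-fold, and by this rule 66 of 12299 genes (0.537%) were higher in HF and 590 (4.8%) lower, 5.33% in either direction. Of the 65 others called higher, all were dimmer than Dapl1 in both diets. The 5 genes with larger differences were Rasd2 (a small GTP-binding protein), Gabra4 (a GABA-A receptor subunit), Aldh1a3 (an enzyme of retinoic acid synthesis), Tnfrsf23 (a decoy receptor) and Aass (an enzyme of lysine breakdown), and their NC means lay between 10.1 and 64.2. Rasd2 had 8.09 in NC replicate 2 and Tnfrsf23 8.71 in NC replicate 4, under the filter limit of 8.82. The sizes of these 2 differences are therefore uncertain. The brightest of the 65 was Neat1, the long RNA that scaffolds paraspeckles, at 2398 ± 535 in NC and 4794 ± 1402 in HF (log2 difference 0.99, limma adjusted p = 0.0259). Of the 1381 other genes at least as bright as Dapl1 in NC, limma called 0 higher and 21 lower. At an unadjusted p under 0.05, 180 of them were higher and 156 lower, where 8.69% of all genes were higher and 14.3% lower. The largest rise among these other genes was that of Malat1, a nuclear long RNA, at 0.74, with overlapping groups and a limma adjusted p of 0.351. The median difference of these bright genes was 0.01 on the log2 scale.

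**Figure D2:**
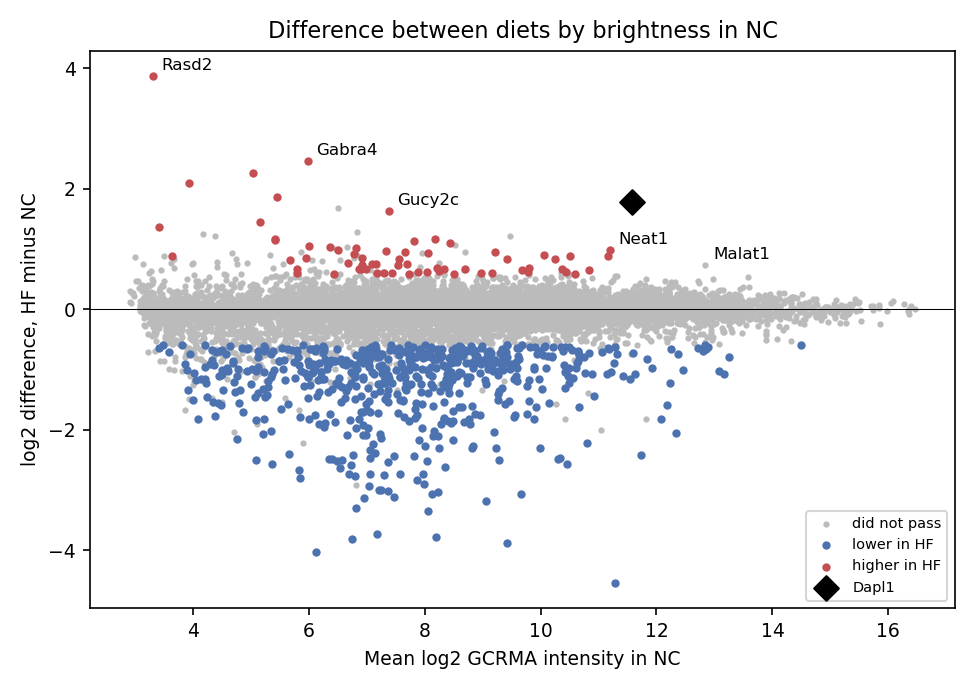
Difference of mean log2 intensity between HF and NC (y axis) against mean log2 intensity in NC (x axis) for 12299 genes, with genes called higher in red, lower in blue and Dapl1 as a black diamond. Dapl1 stands at 11.57 on the x axis and 1.78 on the y axis, where the next largest difference at its brightness or above is 0.74.

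The paralog Dap is read by 2 probe sets, and neither passed the test between the diets. The brighter one had 8457, 8308, 7715 and 7427 in NC replicates 1, 2, 4 and 5 and 8665, 8313, 7909 and 9308 in HF replicates 21, 22, 23 and 24. The groups overlapped, with means of 7977 ± 487 and 8549 ± 593 and a log2 difference of 0.10 (limma adjusted p = 0.469). The other probe set had a log2 difference of 0.07. Dap and Dapl1 are read by different probe sets, so their intensities cannot be ordered as transcript amounts.

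Of the other genes that carry the death-associated protein name, none of those tested passed the limits. Dapk1, a calcium and calmodulin regulated kinase, had 854 ± 88.6 in NC and 679 ± 85.8 in HF (log2 difference -0.33, limma adjusted p = 0.0977), with overlapping groups. Dap3, a protein of the small subunit of the mitochondrial ribosome, had a log2 difference of -0.11 and the kinase Dapk3 one of -0.01. Dapk2 lay below the filter on low values in every pool, at 4.26 or less.

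The genes of the processes linked with Dapl1 and Dap showed few differences of their own. Of 122 such genes 108 were tested, and 2 (1.85%) were called higher and 0 lower by limma, against 0.537% and 4.8% of all genes. At an unadjusted p under 0.05, 11 of them were higher and 6 lower, where 8.69% of all genes were higher, 14.3% lower and 23% either. Their median log2 difference was 0.04, against 0.00 over all genes. In 6 of them the 4 HF pools lay above the 4 NC pools and in 3 below, where over all genes 5.75% lay above and 10.3% below.

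Among the 9 factors of dormant ribosomes, 0 were called and 1 had an unadjusted p under 0.05, as did 23% of all genes. Habp4, which occupies the messenger RNA channel of idle ribosomes, had 475 ± 44.7 in NC and 475 ± 47.9 in HF. The elongation factor Eef2, at 14386 ± 619 and 14744 ± 1268, and the translation factor Eif5a, at 35410 ± 844 and 36630 ± 767, differed by 0.03 and 0.05 on the log2 scale. Eef2k, the kinase that inactivates eEF2, had 192, 242, 227 and 187 in the NC pools and 254, 250.5, 282 and 248 in the HF pools. Its groups did not overlap, but its log2 difference of 0.29 did not pass (limma adjusted p = 0.105). Serbp1, a relative of Habp4, was lower in all 4 HF pools by 0.09 on the log2 scale and did not pass either (limma adjusted p = 0.384). The log2 differences of the remaining 4, Eif5a2, Ccdc124, Ifrd1 and Ifrd2, lay between -0.14 and 0.11.

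Of 26 tested genes of the mTORC1 kinase complex, its inputs and its outputs, 0 were called, and 3 had an unadjusted p under 0.05 (23% of all genes). Sesn1, a sestrin that restrains mTORC1, was lower in all 4 HF pools, at 4655 ± 385 in NC and 3214 ± 550.2 in HF. Its limma adjusted p was 0.0285, but its log2 difference of -0.55 was under the fold limit. The brightest of the list, Lamtor5, Ddit4 and Rheb, had log2 differences of -0.18, 0.13 and 0.05. Of 35 tested autophagy genes 0 were called, with 3 at an unadjusted p under 0.05, again beside 23% of all genes. Gabarap and Map1lc3b, which coat the growing autophagosome, differed by 0.07 and 0.02 on the log2 scale, and Becn1, of the lipid kinase that starts it, by -0.06.

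Of 29 tested cell cycle genes, E2f1 and Rrm2 were called higher and 0 lower (0.537% and 4.8% of all genes). At an unadjusted p under 0.05, 4 were higher and 3 lower (8.69% and 14.3% of all genes). Cdkn2c was higher in all 4 HF pools (log2 difference 0.47, limma adjusted p = 0.0269) but under the fold limit. Mcm6 was lower in all 4 (log2 difference -0.33, limma adjusted p = 0.0326) and also under it. E2f1, a transcription factor of the entry into S phase, had 131, 109, 129 and 109.7 in the NC pools and 221, 158, 161 and 233 in the HF pools. Its groups did not overlap (log2 difference 0.68, limma adjusted p = 0.0245), but the call ended without NC replicate 2, NC replicate 5, HF replicate 21 or HF replicate 24, with adjusted p between 0.0636 and 0.0702. Rrm2, a subunit of ribonucleotide reductase, had overlapping groups (log2 difference 0.67, limma adjusted p = 0.0473), and its call ended in 6 of the 8 fits that left out a pool. Mki67, the proliferation marker, had 59.5 ± 11.4 in NC and 153 ± 116 in HF and did not pass (limma adjusted p = 0.402).

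Of 12 genes of the MITF family and of pigment cells, 7 lay below the filter. Tyrp1, Pmel, Mlana, Rpe65, Rlbp1, Otx2 and Tfec did not exceed an intensity of 7.29 in any pool, and Tyr did not exceed 13.2. Mitf was measured, with 281, 310.2, 367 and 345 in NC replicates 1, 2, 4 and 5 and 365, 581, 607 and 420.02 in HF replicates 21, 22, 23 and 24. The groups overlapped by 1 pool each, and the log2 difference of 0.57 did not pass (limma adjusted p = 0.0838). Dct, an enzyme of pigment synthesis, was measured in every pool, at 306 ± 16.7 in NC and 336 ± 12.6 in HF, and did not pass (log2 difference 0.14, limma adjusted p = 0.213). The Mitf relatives Tfeb and Tfe3 differed by -0.06 and -0.01.

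Dapl1 was next compared with other genes within each diet, as deviations from the diet means over the 8 pools, which sets aside the contrast that chose it. In limma with diet and Dapl1 as terms, 0 of 12298 genes followed Dapl1 at an adjusted p under 0.05 (0%), and the smallest adjusted p was 0.236. At an unadjusted p under 0.05 there were 1011 genes (8.22%), 356 with a positive slope (2.89%) and 655 with a negative one (5.33%). The relations below are therefore descriptions of these 8 pools.

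The genes named here had the highest or lowest Pearson r with Dapl1 among genes that varied within diet at least as much as the median gene. Glrb, the beta subunit of the glycine receptor, had 3886, 3451, 3971 and 4047 in NC replicates 1, 2, 4 and 5 and 3985, 5583, 5597 and 4253 in HF replicates 21, 22, 23 and 24. It was lowest in the pools where Dapl1 was lowest on each diet, with r 0.96, Spearman rho 0.95, and r 0.97 without the 2 pools farthest from their diet mean in Dapl1, HF replicates 21 and 22. Hdgf, a heparin-binding growth factor, ran the other way, with 1440.4, 1542, 1358 and 1401 in NC and 1361, 1034, 1121 and 1283 in HF. Its r was -0.99, its rho -1 and its r without the same pools -0.99. The other genes with the highest r, from 0.96 to 0.97, were the nucleotidase Nt5c3b, the glypican Gpc6, the cytoskeletal adaptor Kank2 and Asb15, a SOCS box protein. The other genes with the lowest r, from -0.98 to -0.97, were Denr, a factor of translation reinitiation, Serpinb9, an inhibitor of granzyme B, the repressor Hbp1 and the phosphatase subunit Ankrd44. Of these 10 genes, Asb15 was called higher in HF (log2 difference 1.37, limma adjusted p = 0.0458) and Gpc6 lower (log2 difference -0.90, limma adjusted p = 0.00534). The call of Asb15 ended in 7 of the 8 fits that left out a pool, without a filter, with beta cell scaling and with array weights (adjusted p up to 0.113 in limma). That of Gpc6 ended with its probe set of largest spread (limma adjusted p = 0.0683). Over all other genes 143 had an r of at least 0.9 in size, 39 positive and 104 negative, and 74.1% of genes had fewer such partners than Dapl1.

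Mitf was among the genes that varied with Dapl1 inside the diets. Its r was 0.88, its rho 0.90 and its r without HF replicates 21 and 22 0.84, and its slope had a limma adjusted p of 0.389 over all genes. Dap varied in the opposite sense, with r -0.68, rho -0.67, r -0.89 without those pools and a limma adjusted p of 0.694. Of the 29 tested cell cycle genes, 19 had a negative r and 10 a positive one, with a median of -0.21. Over all other genes 39.2% had a positive r, and the median was -0.14. In limma 4 of the 29 had an unadjusted slope p under 0.05, against 8.22% of all genes. Among them E2f1 had r -0.71 and Mcm6, a subunit of the replicative helicase, r -0.91. Rrm2 had r -0.26. Without HF replicates 21 and 22 the r of E2f1, Mcm6 and Rrm2 was -0.47, -0.89 and -0.37. Both E2f1 and Dapl1 were higher in HF, but within HF the pools with the most E2f1, replicates 21 and 24, had the least Dapl1. In NC, replicate 2 had the least of both genes.

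The other genes called higher were also set against Dapl1 within diet. Of the 65, 39 (60.0%) had a positive r, with a median of 0.20, against 39.2% and a median of -0.14 over all other genes, and 5 had an r of at least 0.7, which were Asb15, Golm1, Tnfrsf11b, Tnfrsf22 and Trpc4. Of the 590 genes called lower, 421 (71.4%) had a positive r, with a median of 0.25, and 74 had an r of at least 0.7. An r of this size was therefore not particular to the genes called higher. Golm1, a Golgi membrane protein, had 538, 549, 604 and 613 in the NC pools and 739, 1062, 922 and 803 in the HF pools, in the order given above, with an r of 0.96. The calls of Golm1 and Tnfrsf11b did not last under several of the alternatives. Of the genes with the largest differences, Rasd2, Gabra4 and Aass had r of 0.69, 0.67 and 0.67, Aldh1a3 0.56 and Tnfrsf23 0.07. Without the HF pools of lowest and highest Dapl1, r stayed positive for Rasd2 (0.75) and Aass (0.42). It turned negative for Gabra4 (-0.26), Aldh1a3 (-0.39) and Tnfrsf23 (-0.34), so the sign of these relations depended on those pools.

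**Figure D3:**
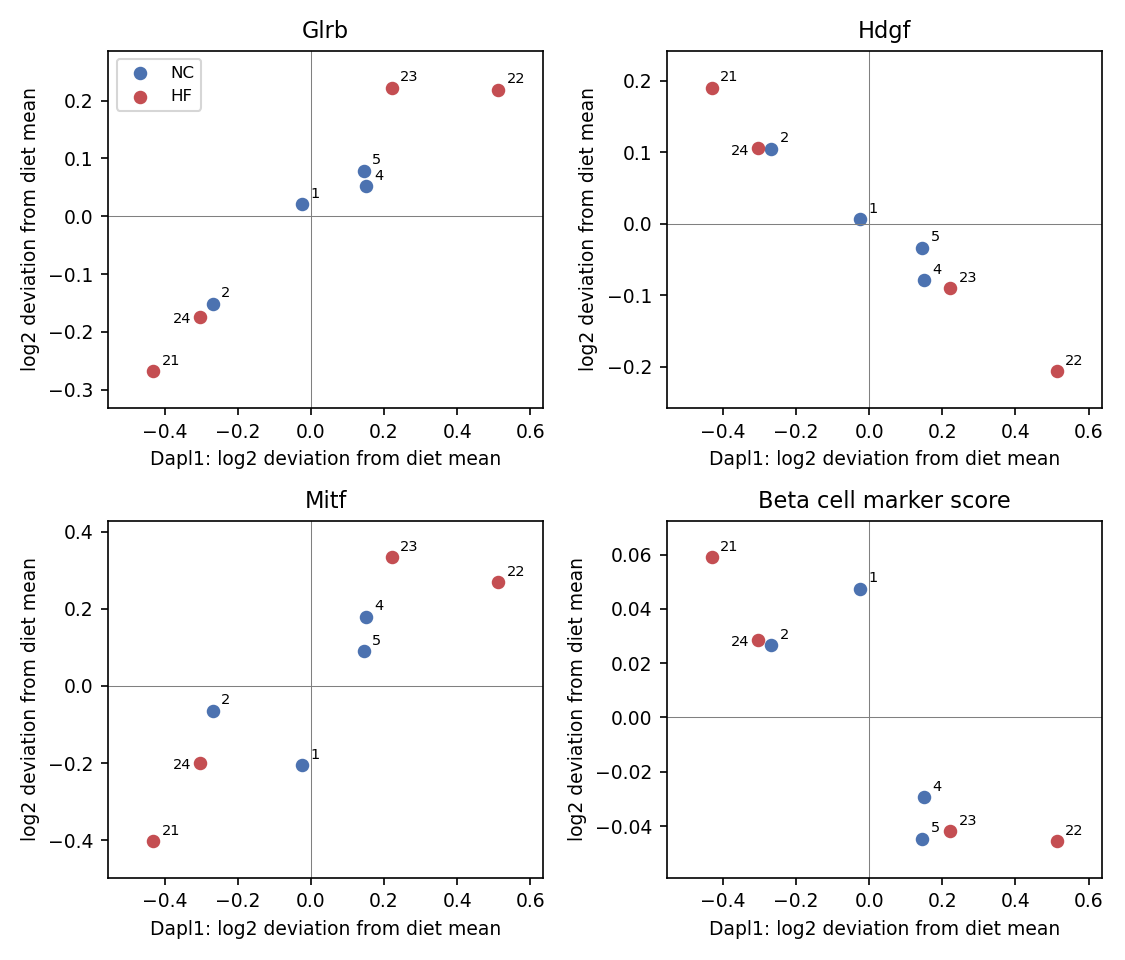
Deviation of each pool from its diet mean on the log2 scale, for Dapl1 (x axis) against Glrb, Hdgf, Mitf and the mean of 18 beta cell markers (y axes), with NC pools in blue, HF pools in red and replicate numbers beside the points. Glrb and Mitf are high in the pools where Dapl1 is high (r 0.96 and 0.88), and Hdgf and the beta cell marker score are low there (r -0.99 and -0.87).

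The cell makeup of the pools was followed with marker lists. The islet label was checked on its defining hormones, of which Ins2, at 67580 ± 432 in NC and 72718 ± 1199 in HF, and the amyloid hormone Iapp, at 79381 ± 1023 and 84905 ± 1877, were among the brightest signals on both diets. The acinar marker Cela3b was also that bright, at 86517 ± 9927 in NC and 89572 ± 4133 in HF. The hormone signals therefore do not show how pure the islets were. Of 18 beta cell markers 0 were called, with 4 higher at an unadjusted p under 0.05 (8.69% of all genes), and their mean log2 level ran from 13.25 to 13.34 in NC and from 13.33 to 13.44 in HF. Of 11 tested genes described in dedifferentiated or stressed beta cells, 2 were called higher and 4 lower (0.537% and 4.8% of all genes). Fabp3 was higher, with a log2 difference of 0.83 (limma adjusted p = 0.00474). Ldha and Cd81 were lower, by -1.23 and -0.73 (limma adjusted p = 0.00128 and 0.00246). Slc16a1, also called lower, averaged 7.74 in HF, under the filter limit of 8.82. All 11 fibroblast markers were lower in HF, with a mean log2 level of 8.76 to 9.25 in NC and 6.07 to 7.13 in HF. Lower in HF were also 5 of 7 Schwann cell markers (7.10 to 7.32 in NC, 5.47 to 6.02 in HF), 6 of 12 leukocyte markers (8.48 to 8.75, 7.78 to 7.99), 4 of 12 endothelial markers (9.75 to 10.1, 9.07 to 9.32) and 2 of 6 alpha cell markers (10.9 to 11.1, 10.3 to 10.7). Of 16 acinar markers 1 was lower (13.97 to 14.5, 14.04 to 14.3), of 12 duct markers 1 (7.71 to 7.92, 7.46 to 7.62), and of 5 delta and PP cell markers 0 (13.4 to 13.6, 13.1 to 13.3). These are counts of called genes, and 4.8% of all genes were called lower. At an unadjusted p under 0.05, 4 of the 5 delta and PP cell markers were lower (14.3% of all genes). Among them Pyy had a limma adjusted p of 0.0464, but its log2 difference of -0.20 was under the fold limit. The part of these cell types in the Dapl1 difference was not tested. When the pools were scaled to equal means of the beta cell markers, which moved the median gene by -0.08, the log2 difference of Dapl1 was 1.70.

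T cells, in which Dapl1 is known, left little signal. Of 14 T cell markers on the array 12 lay below the filter, and Cd3e, Cd3d and Cd3g, of the T cell receptor complex, did not exceed 4.94 in any pool. The 2 that passed the filter, Zap70 and Ccr7, had means of 137 and 12.0 in NC and 131 and 8.06 in HF. Neither was called (limma adjusted p = 0.670 and 0.0380, the latter with a log2 difference of -0.55, under the fold limit). Only the NC pools kept Ccr7 in the test, since its highest HF value was 8.61, below the filter limit of 8.82. Its difference is therefore uncertain, and the T cell score rests on these 2 genes. Of the duct and epithelial markers, Krt19, a keratin, was called lower, at 24.3 ± 14.5 in NC and 6.24 ± 1.56 in HF (limma adjusted p = 0.0378). The highest HF value of Krt19, 8.53, lay below the filter limit of 8.82, so only its NC pools kept it in the test. The size of its fall is therefore uncertain. Tspan8 was lower in all 4 HF pools (log2 difference -0.53, limma adjusted p = 0.0133) but under the fold limit. The brightest, Cdh1 and Krt18, at 13251 ± 197 and 6036 ± 816 in NC, had log2 differences of -0.03 and 0.04.

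Within diet, the beta cell marker score was lower in the pools with more Dapl1. Its r was -0.87 (p = 0.03125 by an exact two-sided permutation test of the 576 arrangements within diet), rho was -0.86 (exact permutation p = 0.0556) and r without HF replicates 21 and 22 was -0.82. In all, 10 lists were compared in this way, and after Benjamini-Hochberg adjustment over them p was 0.3125, so the relation did not hold up. The score itself varied little, by at most 0.10 on the log2 scale between the pools of 1 diet. Ucn3, the peptide of mature beta cells, had 11551, 11578, 10556 and 10138 in the NC pools and 12825, 9955, 11265 and 12306 in the HF pools, with an r of -0.94 to Dapl1, the lowest of the list, and an adjusted slope p of 0.412 in limma. Of the 18 markers 14 had a negative and 4 a positive r, where 39.2% of all other genes had a positive one. G6pc2, Pdx1 and Isl1 had r of 0.71, 0.69 and 0.53. Fibroblast and Schwann cell scores had r of 0.72 and 0.69 (exact permutation p = 0.149 and 0.172, both adjusted to 0.403), whereas between the diets these lists were lower where Dapl1 was higher. The fibroblast marker Vim, for example, had a log2 difference of -1.81 between diets and an r of 0.91 within diet. The leukocyte score had r -0.59 (exact permutation p = 0.109, adjusted 0.403) and the endothelial score r 0.53 (exact permutation p = 0.201, adjusted 0.403). The acinar, alpha, delta and PP, duct and T cell scores had r between -0.39 and 0.14, with no exact permutation p under 0.306.

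**Figure D4:**
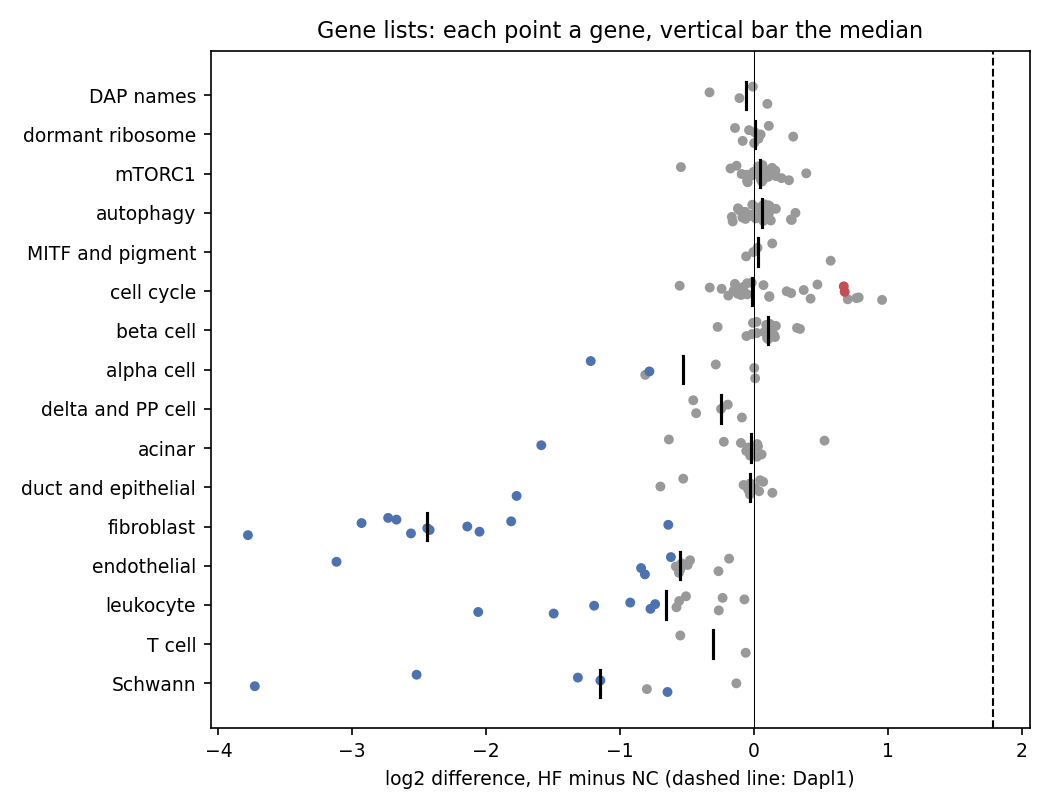
Log2 difference between HF and NC of each tested gene of 16 lists (points, red where called higher, blue where called lower, grey otherwise), with the median of each list as a vertical bar and Dapl1 as the dashed line at 1.78. The lists linked with Dapl1 and Dap have medians between -0.06 and 0.06, and the fibroblast list has one of -2.44.

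Of the 5 tested genes on each side of Dapl1 on chromosome 2, 0 were called higher in HF and 2 lower (0.537% and 4.8% of all genes). At an unadjusted p under 0.05, 0 were higher and 4 lower (8.69% and 14.3% of all genes). The nearest, Pkp4, a plakophilin of cell junctions 129 kb before Dapl1, and Tanc1, a scaffold protein 107 kb after it, had log2 differences of -0.14 and 0.04. Cytip, a lymphoid adaptor protein, fell from 239 ± 52.3 to 71.95 ± 19.6 (log2 difference -1.74, limma adjusted p = 0.00310), and Cd302, a C-type lectin receptor, from 73.4 ± 10.99 to 28.9 ± 7.72 (log2 difference -1.38, limma adjusted p = 0.00395). They lie at the far ends of the window, 1289 kb before and 747 kb after Dapl1. The other 6, Acvr1c, Acvr1, Upp2, Wdsub1, Baz2b and Marchf7, had log2 differences between -0.37 and 0.15 and did not pass.

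**Figure D5:**
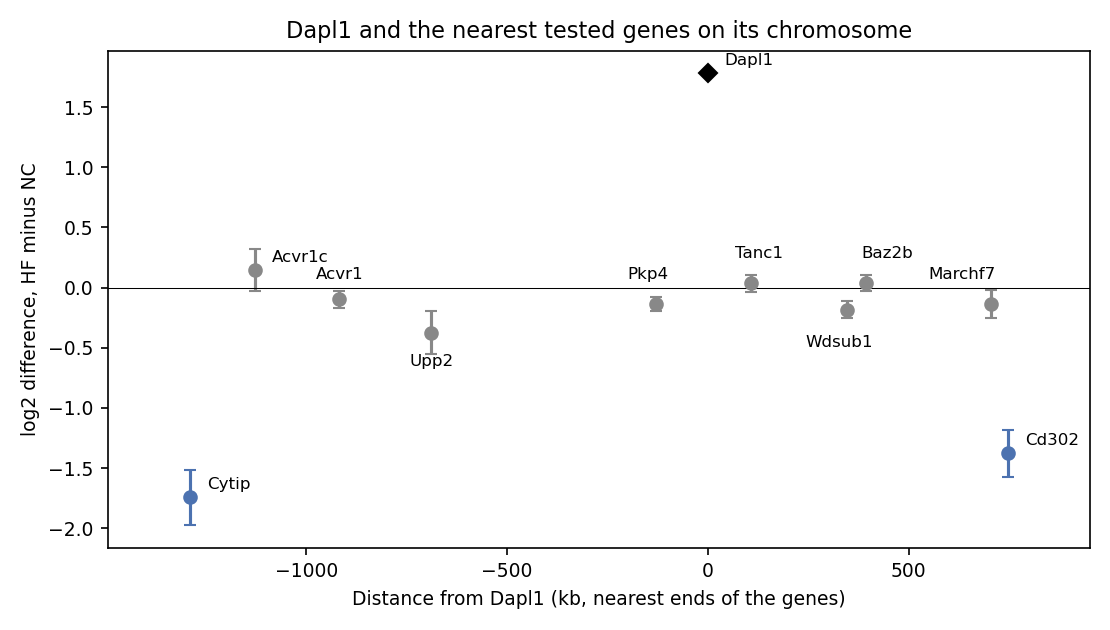
Log2 difference between HF and NC (y axis, with the limma standard error) of the 5 tested genes on each side of Dapl1, against the distance in kb between the nearest ends of the genes (x axis). Dapl1, shown without error as the gene chosen for this contrast, stands at 1.78, and its neighbours lie between -1.74 and 0.15.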

How the data were processed

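Islet RNA of 8 samples (4 NC, 4 HF, grouped by their labels) was hybridised to Affymetrix MOE 430v2 arrays. The authors read the probe data into ArrayAssist Lite 3.4 and calculated 1 value per probe set with GCRMA. The deposited values are intensities on the linear scale, which was read from the values, and array medians lay between 13.0 and 13.8. Where the probes lie in each transcript is not given in the sources used here.

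Values were taken to log2 without further normalization. The study kept probe sets flagged present and used SAM, neither of which was used here. Instead, as many probe sets as the present filter had retained were kept by third-highest intensity (8.82 or more), and the brightest retained probe set by mean stood for each gene. Of all probe sets 34958 are annotated to 1 gene, 932 to several and 9211 to none named. Differences between diets were fitted in limma 3.58.1 under R 4.3.3, with Benjamini-Hochberg adjustment. The procedure was also run on simulated data, with noise drawn independently for each gene and array. Variation shared between genes was not simulated. Within-diet relations used deviations from diet means, with exact permutation tests for marker scores.

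Dapl1, the 18 gene lists with 280 genes and the tests were chosen with earlier results of these data known. Genes were picked for naming by rule. They were Dapl1, members of the DAP and dormant ribosome lists, and up to 3 of each other list. Those 3 were taken by smallest p among those that passed, or else by highest mean. Also picked were earlier risers, 5 neighbours on each side and 3 genes on each side in brightness. To these came 5 genes with the highest and 5 with the lowest r. Not all of the picked genes are described above, among them the earlier risers Gucy2c, Dhdh and Hyou1. Neat1, Malat1, Sesn1, Mki67, Cdkn2c, Mcm6, Tfeb, Golm1, Tnfrsf11b, Tnfrsf22, Trpc4, Ucn3, Pdx1, Isl1, Tspan8 and the pigment and T cell genes below the filter were named after their values were seen. Alternatives were other filters, scalings, priors, array weights, probe set choices and fold limits, the methods' t-test and leaving out each sample. Promoters were read from a RefSeq table of GRCm38.p6. The protein and functional measurements of the study were not analysed here.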

Additional observations from a re-analysis of the deposited data

Results flagged for a closer look

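In 6 of 178 groups of 4 pools, over 89 genes, 1 pool stood apart from the other 3 by a Dixon test at the 95% level, which chance gives in about 1 of 20 groups, and Dapl1 was in none of them. NC replicate 2 was apart for Ppargc1a (73.5, others 125 to 135), Upp2 (41.9, others 25.2 to 26.6) and Pkp4 (3403, others 3014 to 3077). NC replicate 1 was apart for Iapp (77860, others 79709 to 80031), HF replicate 22 for Tfe3 (705, others 539 to 559.6), and HF replicate 23 for Zap70 (115, others 135 to 138).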

How the results depend on the processing

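The log2 difference of Dapl1 was 1.78 after quantile normalization, 1.70 after scaling to beta cell markers and 1.82 from linear means. Among retained genes only, the mean share of brighter genes was 11.4% in NC and 2.74% in HF. Genes called higher numbered 66, but 32 by the methods' general t-test after adjustment (94 before it). They numbered 265 without a fold limit and 146 with the probe set of largest spread per gene. Genes called lower numbered 590, but 350.0 with a stricter filter and 355 by the adjusted t-test (704 before it). The related genes called higher, 2, were 1 without a filter or with beta cell scaling and 0 by the adjusted t-test, and those called lower, 0, were 1 with beta cell scaling or the probe set of largest spread and 2 without a fold limit. Leaving out 1 pool gave 40 genes higher (without HF replicate 24) to 73, 432 to 576 lower, 0 to 2 and 0 to 1 related genes, 0 to 1 gene that followed Dapl1 within diet (1 without NC replicate 5), and 1.61 to 1.92 for the difference of Dapl1. The calls of E2f1, Rrm2, Asb15, Golm1 and Tnfrsf11b ended in the adjusted t-test, those of Rrm2, Asb15 and Tnfrsf11b without a filter, those of Rrm2, Asb15 and Golm1 with beta cell scaling (Golm1 at a log2 difference of 0.52), and those of Asb15 and Golm1 with array weights (Golm1 at 0.55). Calls of Golm1 ended in 4 and of Tnfrsf11b in 6 of the 8 fits without a pool, and those of Cytip, Cd302 and Vim in none. The causes were not tested.

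For marker scores, leaving out 1 pool gave r of -0.20 to 0.22 (acinar), -0.74 to 0.42 (alpha), -0.96 to -0.80 (beta), -0.15 to 0.31 (delta and PP), -0.63 to -0.13 (duct), 0.38 to 0.93 (endothelial), 0.51 to 0.87 (fibroblast), -0.76 to -0.36 (leukocyte), 0.48 to 0.88 (Schwann) and -0.54 to -0.06 (T cell). The acinar rho was 0.17, opposite in sign to its r of -0.01. Of 100 alternative values, 0 passed after adjustment and 6 changed sign. No paired analysis was possible because the diets share no replicate numbers. With 4 pools a diet, 1 probe set and no dye or spike reference, small differences could not be resolved, and the share of the Dapl1 signal from each cell type was not measured.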
